A study of Mus musculus with 2 samples.

Results

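Gal, Nts, Npy, Vip, Crh, Atf3, Sox11, Sprr1a, Ecel1 and Gadd45a are 10 genes that sensory neurons are known to switch on when their axons are damaged, and they were followed here in mouse dorsal root ganglia after dry skin treatment. They were chosen by name, with the values of this comparison already known, and make up 10 of the 23282 rows of the count files, each symbol matching 1 row. The set groups peptides and transcription factors, and it also holds 3 genes that are neither, Sprr1a, Ecel1 and Gadd45a. All mice were wild type. The AEW group was treated with acetone, ether and water, a chemical model of dry skin, on 5 consecutive days and gave its ganglia on day 6, and the Water group received water. The sources used here do not give the age, sex, strain background or ganglion levels. For each group, total RNA from 6 mice was combined, which is read here as 1 pool and 1 library per group, so that no value below has a replicate check. Treatment, animals, dissection and library preparation all differ between the libraries and cannot be told apart.

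Dorsal root ganglia hold the cell bodies of sensory neurons, wrapped by satellite glia and served by Schwann cells, macrophages and vessels. When a peripheral axon is cut or stressed, kinases signal from the axon to the nucleus, transcription factors such as ATF3 and SOX11 are induced, and the neuron starts to make growth-associated proteins. Its peptide content changes at the same time: galanin, neuropeptide Y and vasoactive intestinal peptide are made in larger amounts, while substance P and calcitonin gene-related peptide decline. In the healthy ganglion, galanin and neurotensin are also made by small groups of uninjured sensory neurons.

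Depth was 9333882 counts for Water and 14376228 for AEW. Counts were scaled with TMM (trimmed mean of M values) and are given as scaled CPM (the count per 1000000 scaled counts of the library). A gene was measured when its 2 counts summed to at least 20, and was called lower or higher when the AEW to Water ratio reached 1.5-fold and its exact 95% counting interval excluded 1. Intervals cover counting error only, and may be too narrow even for that, since reads copied from 1 molecule are not independent. Although the labels name neurons as the cell type, the libraries also held transcripts of glia and macrophages. The 22 pan-neuronal markers summed to 10451 CPM in the Water and 16537 CPM in the AEW library, 18 macrophage markers to 1018 and 388 CPM, and 15 epidermal markers to 39.2 and 867 CPM. In such bulk tissue, fewer cells of a type and less RNA per cell cannot be told apart.

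Of the 10 genes, 9 were measured and all 9 were called lower in the AEW library, where 14.9% of all 14854 measured genes were called lower. None was called higher, against 17.3% of measured genes. Because the genes were chosen with these values known, the count is a description. Their ratios ran from 1.63-fold lower for Sox11 and Gadd45a to 15.7-fold lower for Crh, with a median log2 ratio of -1.67 beside 0.03 over all measured genes. The peptides were lowest as a group (median -2.67, 4 measured), followed by the transcription factors (-1.46, 2 genes) and the remaining genes (-0.97, 3 genes). At 2-fold, 6 of the 9 were called lower, where 6.85% of measured genes were. With an interval that had to exclude 1.5-fold, 7 of the 9 were, beside 7.21% of measured genes.

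**Figure D1:**
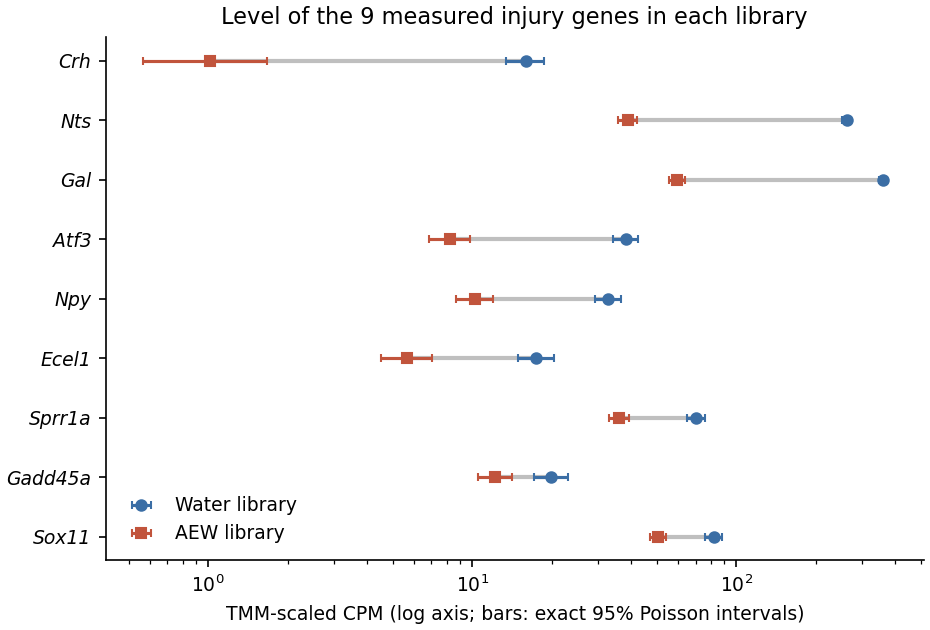
TMM-scaled CPM of the 9 measured genes on a log axis, with the Water library as blue circles, the AEW library as red squares and exact 95% Poisson intervals as bars. Every gene lies lower in the AEW library, with the widest gap for Crh (15.9 and 1.01 CPM) and the narrowest for Sox11 (82.1 and 50.5 CPM). Vip, with 1 and 0 counts, is not drawn.

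Gal, the precursor gene of galanin, a peptide that acts on inhibitory and excitatory receptors of sensory and spinal neurons (ENSMUSG00000024907.7, chromosome 19, 3409915 to 3414544, minus strand), was counted 3237 times in the Water and 883 times in the AEW library. Its level was 358 CPM (345 to 370) in the Water and 59.6 CPM (55.7 to 63.6) in the AEW library, which is 6.00-fold lower (95% counting interval 5.57 to 6.47). The deeper library thus held the smaller raw count, and the 2 intervals did not overlap. A comparison with other peptides needs no library scaling. For every 1000 counts of Calca, the calcitonin gene-related peptide gene, there were 163 counts of Gal in the Water and 29.8 in the AEW library, a ratio 5.48-fold lower (5.08 to 5.92). Against Tac1, the substance P gene, Gal was 8.40-fold lower (7.72 to 9.15). Of 367 measured genes with at least the Water level of Gal, no other gene had a ratio as low. This rests on where the cut falls, as Nts, below it at 261 CPM in the Water library, was 6.74-fold lower.

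Nts, the precursor gene of neurotensin, a peptide made by a small group of itch-related sensory neurons (ENSMUSG00000019890.4, chromosome 10, 102481756 to 102490486, minus strand), was counted 2363 times in the Water and 574 times in the AEW library. The level was 261 CPM (251 to 272) in the Water and 38.7 CPM (35.6 to 42.0) in the AEW library, 6.74-fold lower (6.15 to 7.39). Nts and Gal were lower by similar amounts, as the count of Nts per count of Gal was 0.730 in the Water and 0.650 in the AEW library, a 1.12-fold difference whose interval (0.997 to 1.27) included 1. Nts is known to be made with Sst, the somatostatin gene, in 1 class of itch neurons, and these 2 genes went opposite ways. Sst had 41 and 316 counts, so that Nts counts per Sst count were 57.6 in the Water and 1.82 in the AEW library, 31.7-fold lower (22.5 to 45.6).

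Npy, the neuropeptide Y gene, scarce in healthy sensory neurons and induced in large ones after nerve injury (ENSMUSG00000029819.6, chromosome 6, 49822710 to 49829507, plus strand), was counted 296 and 152 times. The level was 32.7 CPM (29.1 to 36.6) in the Water and 10.3 CPM (8.69 to 12.02) in the AEW library, 3.19-fold lower (2.61 to 3.90). Sympathetic neurons also make this peptide, and 7 markers of these neurons were followed. Maoa, a monoamine-degrading enzyme, had 547 and 730 counts, the transcription factor gene Phox2a 283 and 488, and the vesicular monoamine transporter gene Slc18a2 58 and 119, whereas Dbh, the noradrenaline-synthesising enzyme, had 2 and 5 counts and Hand2 had 3 and 5. The list summed to 102 CPM in the Water and 95.2 CPM in the AEW library, most of it from Maoa (60.4 and 49.3 CPM) and Phox2a (31.3 and 32.9 CPM). Of 5 measured markers 0 were called lower and 1 higher, the nicotinic receptor subunit Chrna3, beside 14.9% and 17.3% of all measured genes. With so few markers, these counts cannot be set apart from those shares. The part of sympathetic neurons in the Npy counts was not tested.

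Crh encodes corticotropin-releasing hormone, the peptide that starts the pituitary stress axis (ENSMUSG00000049796.4, chromosome 3, 19693401 to 19695396, minus strand), and it had the lowest ratio of the set. It had 144 counts in the Water and 15 in the AEW library, or 15.9 CPM (13.4 to 18.7) and 1.01 CPM (0.566 to 1.67), 15.7-fold lower (9.22 to 28.8). Only 10 of 14854 measured genes had a lower ratio. Crh is also a gene of central neurons, and some markers of the central nervous system moved the same way. Of 6 measured cerebellar and choroid plexus markers, 4 were called lower and none higher, beside 14.9% and 17.3% of all measured genes. The lower markers included Ttr, the choroid plexus carrier of thyroxine, with 106 and 18 counts, and Cbln3, a granule cell gene, with 53 and 8. Neurod1, with 44 and 76 counts, and Cbln1, with 28 and 38, were called neither lower nor higher. The cerebellar and choroid plexus list summed to 71.9 CPM in the Water and 30.3 CPM in the AEW library. Below the summed count needed were Gabra6 (3 and 0 counts), Otx2 (8 and 0), Fat2 (1 and 3) and Folr1 (1 and 1). Among 9 measured spinal cord markers, 4 were lower and 1 was higher, beside the same shares of all measured genes. The spinal cord list summed to 90.0 and 64.7 CPM, with Lbx1 at 0 in both libraries and Pax2 at 0 in the Water library. The part of central tissue in the Crh counts was not tested.

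Vip, the gene of vasoactive intestinal peptide (ENSMUSG00000019772.5, chromosome 10, 5639218 to 5647617, plus strand), was the gene of the set that was not measured. It had 1 count in the Water and 0 in the AEW library, both within the 3 counts that a count of 0 allows, which is 0.331 CPM in the Water and 0.202 CPM in the AEW library. A difference was not detectable at this depth, and no fold is given.

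Atf3, a stress-induced transcription factor widely used as a marker of axotomised neurons (ENSMUSG00000026628.13, chromosome 1, 191170296 to 191218039, minus strand), was counted 345 times in the Water and 122 times in the AEW library. The level was 38.1 CPM (34.2 to 42.3) and 8.23 CPM (6.84 to 9.83), 4.63-fold lower (3.75 to 5.74), with intervals far apart. Jun, whose product pairs with ATF3 on DNA, differed less, with 989 and 1227 counts and a ratio of 0.76 (0.70 to 0.82) that was not called. Atf3 per Jun count was 3.51-fold lower in the AEW library (2.80 to 4.42), and Atf3 per count of Jdp2, a close relative, was 2.94-fold lower (2.17 to 4.0). Atf3 is also induced in Schwann cells of damaged nerve. Of 4 measured markers of such repair Schwann cells, 0 were called lower and 1, Ngfr, higher, beside 14.9% and 17.3% of all measured genes. So few markers cannot set these counts apart from those shares. The list of 6 summed to 193 CPM in the Water and 493 CPM in the AEW library. Ngfr alone gave 178 and 478 CPM of these sums, and the other 5 genes together gave 15.5 and 14.9 CPM, with Olig1 at a ratio of 0.73 and Runx2 at 0.65. The part of Schwann cells in the Atf3 counts was not tested.

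Sox11, a transcription factor of developing and regenerating neurons (ENSMUSG00000063632.6, chromosome 12, 27334264 to 27342574, minus strand), gave nearly equal raw counts, 743 in the Water and 748 in the deeper AEW library. After scaling, the level was 82.1 CPM (76.3 to 88.2) and 50.5 CPM (46.9 to 54.2), 1.63-fold lower (1.47 to 1.80), close to the 1.5-fold threshold. Its group relative Sox4 had a ratio of 1.43 (1.25 to 1.63), below that threshold, and Sox12 of 1.07 (0.84 to 1.36). Sox11 per Sox4 count was 2.32 in the Water and 1.0 in the AEW library, 2.32-fold lower (1.96 to 2.75).

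Gadd45a, a stress-induced protein linked to DNA repair and demethylation (ENSMUSG00000036390.8, chromosome 6, 67035096 to 67037457, minus strand), was counted 180 and 181 times. Its level was 19.9 CPM (17.1 to 23.0) in the Water and 12.2 CPM (10.5 to 14.1) in the AEW library, 1.63-fold lower (1.32 to 2.01), also near the threshold. The other members of its family were not called, Gadd45b at a ratio of 0.79 (0.52 to 1.21) and Gadd45g at 1.26 (1.08 to 1.48). Gadd45a per Gadd45g count was 2.06-fold lower (1.58 to 2.68).

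Ecel1, a membrane protease of the neprilysin family that is induced in injured neurons (ENSMUSG00000026247.13, chromosome 1, 87147655 to 87156521, minus strand), was counted 158 and 84 times. The level was 17.5 CPM (14.8 to 20.4) and 5.67 CPM (4.52 to 7.02), 3.08-fold lower (2.35 to 4.06). Its relatives did not share 1 direction. Mme, which encodes neprilysin itself, was 2.43-fold lower (2.17 to 2.72), and Ece2, an endothelin-converting enzyme, was 2.17-fold higher (1.64 to 2.92). Ece1 had a ratio of 1.24 (1.13 to 1.36). Phex, a further relative, had 9 and 16 counts and was not called.

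Sprr1a, a small proline-rich protein that promotes axon outgrowth in injured neurons and is otherwise known from the cornified envelope of skin cells (ENSMUSG00000050359.7, chromosome 3, 92483952 to 92485895, minus strand), was counted 636 and 532 times. It was at 70.2 CPM (64.9 to 75.9) in the Water and 35.9 CPM (32.9 to 39.1) in the AEW library, 1.96-fold lower (1.74 to 2.20). Epidermal genes went the opposite way. All 15 measured epidermal markers were called higher in the AEW library, where 17.3% of all measured genes were. Ivl and Dsg1a were at 0 in the Water library, and the basal keratinocyte keratin Krt5 went from 1 to 1336 counts. The other measured genes of the Sprr family were called higher too: Sprr1b had 0 and 25 counts (at least 5.09-fold higher against the floor of 3 counts per library), Sprr2d 0 and 44 (at least 8.96-fold) and Sprr2h 0 and 30 (at least 6.11-fold). The Sprr2 genes are near-identical copies, so their separate counts are uncertain. Sprr1a counts per count of Krt10, a keratin of differentiated epidermis, were 5.01 in the Water and 0.312 in the AEW library. The part of epidermal RNA in the AEW counts of Sprr1a was not tested.

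Ordered by ratio, the genes ran from Crh over Nts, Gal, Atf3, Npy, Ecel1, Sprr1a and Gadd45a to Sox11. Neighbours in this order were compared by the quotient of their folds, with its exact counting interval. The quotient was 2.33 (1.35 to 4.31) for Crh over Nts, 1.30 (1.03 to 1.62) for Gal over Atf3, 1.45 (1.08 to 1.95) for Atf3 over Npy and 1.57 (1.17 to 2.13) for Ecel1 over Sprr1a, so that these pairs differed beyond counting error. For the other neighbours the interval included 1. It ran from 0.997 to 1.27 for Nts and Gal, from 0.734 to 1.46 for Npy and Ecel1, from 0.942 to 1.53 for Sprr1a and Gadd45a, and from 0.790 to 1.27 for Gadd45a and Sox11. Counted from the lowest ratio among 14854 measured genes, Crh ranked 11, Nts 46, Gal 57, Atf3 101, Npy 253 and Ecel1 274. Sprr1a ranked 1125, Gadd45a 1989 and Sox11 1993, so that the last 3 lay among many other genes.

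**Figure D2:**
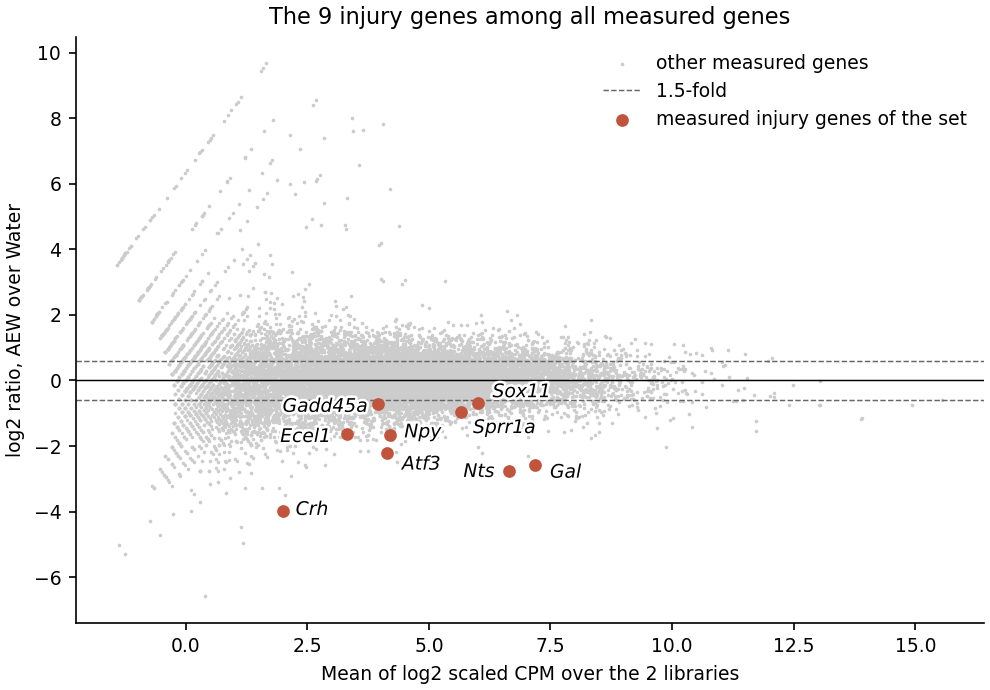
The log2 ratio of AEW over Water against the mean log2 scaled CPM for measured genes (grey) and the 9 measured genes of the set (red), with 1.5-fold as dashed lines. Crh, Nts, Gal and Atf3 lie below the cloud of genes of like level, while Sox11, Gadd45a and Sprr1a lie within its lower part. The 136 measured genes with a count of 0 in 1 library are not drawn.

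For each gene the deviation from the median of its 500 neighbours in mean level was divided by their scaled median absolute deviation. When a call also needed this quotient to exceed 3 in size, 5 of the 9 were called lower, Gal, Nts, Npy, Crh and Atf3, where 0.666% of measured genes were. The quotients were -5.45 for Gal, -5.62 for Nts, -5.95 for Crh, -4.02 for Atf3 and -3.18 for Npy. Ecel1 lay at -2.75, Sprr1a at -2.07, Sox11 at -1.76 and Gadd45a at -1.61. The genes closest to each of the 4 lowest in level over both libraries were taken by the Euclidean distance in log2(CPM + 1), which rests on only 2 values per gene. For Gal they were Cwc22, Tnni2 and Nts, and for Nts they were Cwc22, Gal and Rarres2. Cwc22, 4.97-fold lower at 2670 and 879 counts, is known to differ in copy number between mouse strains, and the sources used here do not say whether the pools share a genetic background. For Crh they were the chemokine gene Ccl5, Ttr and Nr4a3, and for Atf3 the mast cell tryptase gene Tpsb2, Medag and Pop4. The ratios of these neighbours ran from 2.95-fold lower for Tnni2 to 11.4-fold lower for Ccl5.

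The sequences upstream of 4 of the genes are shown as examples, out of 9 genes of the set with a window. Stress-induced genes of neurons are known to be controlled through AP-1 and cAMP response elements (CRE) near their starts. They come from RefSeq on GRCm38.p6 (the mm10 assembly), run 5′ to 3′ on the gene's strand and end at the base before the RefSeq start. Capitals mark a match on either strand to the AP-1 letters TGANTCA or to the CRE core TGACGT, which is contained in the full CRE TGACGTCA. The Gal window is chr19:3414545-3414794, and that of Nts is chr10:102490487-102490668, where the 68 bases nearest the RefSeq start were left off because GENCODE annotates them as exon. The Atf3 window is chr1:191183334-191183583, at a start inside the longer annotated gene and with its last 7 bases in an annotated exon. The Sprr1a window is chr3:92485882-92486131, with 14 such bases. All 4 are on the minus strand.
Gal: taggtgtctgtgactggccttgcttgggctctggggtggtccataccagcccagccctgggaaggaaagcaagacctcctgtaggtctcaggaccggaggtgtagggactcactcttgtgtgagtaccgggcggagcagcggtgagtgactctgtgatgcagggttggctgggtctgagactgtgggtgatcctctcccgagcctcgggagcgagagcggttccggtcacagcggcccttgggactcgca
Nts: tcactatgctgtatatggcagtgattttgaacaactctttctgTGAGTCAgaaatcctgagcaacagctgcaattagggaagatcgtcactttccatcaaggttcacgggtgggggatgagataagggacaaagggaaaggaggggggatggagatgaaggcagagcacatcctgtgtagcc
Atf3: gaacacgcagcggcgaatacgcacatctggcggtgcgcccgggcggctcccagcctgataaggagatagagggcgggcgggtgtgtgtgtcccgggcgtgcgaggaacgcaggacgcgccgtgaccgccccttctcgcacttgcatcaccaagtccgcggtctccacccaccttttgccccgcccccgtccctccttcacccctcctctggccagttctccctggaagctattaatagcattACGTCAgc
Sprr1a: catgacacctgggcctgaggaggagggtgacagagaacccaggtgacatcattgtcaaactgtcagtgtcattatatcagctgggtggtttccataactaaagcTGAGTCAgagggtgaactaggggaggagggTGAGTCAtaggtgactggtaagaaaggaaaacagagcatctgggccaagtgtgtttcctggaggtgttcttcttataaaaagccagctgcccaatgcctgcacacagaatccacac

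Sprr1a held 2 AP-1 matches, starting 146 and 116 bases before the start, and Nts held 1, starting 207 bases before it. Atf3 held a CRE core starting 8 bases before its start, and Gal held none of these letters. The windows of Npy, Sox11, Ecel1 and Gadd45a, which are not shown, held none either. Among the 9 genes of the set with a window of 250 bases, AP-1 was matched in 2 (Nts and Sprr1a), the CRE core in 2 (Atf3 and Vip) and the full CRE in 0. Over all 32851 such windows in the table, 6.75% matched AP-1, 6.47% the CRE core and 1.55% the full CRE. A match describes letters and not a site in use.

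Of 17 receptors and binding proteins of these peptides, 10 were measured. On the TMM scale 2 were called lower, 0 higher and 8 neither. Among all measured genes 14.9% were called lower, not far from the 20% here, and 17.3% higher. The median log2 ratio of the receptors and binding proteins was -0.20. With the median of the 22 pan-neuronal markers set to 0, 7 were lower, where 61% of measured genes were, and 0 higher, and the median was -1.02. Npy2r, a receptor for neuropeptide Y on nociceptor terminals, was 2.33-fold lower (1.98 to 2.75) at 366 and 257 counts, and Crhbp, which binds the Crh product, was 5.24-fold lower (1.83 to 18.3) at 16 and 5 counts. Npy per Npy2r count was 1.37-fold lower in the AEW library (1.05 to 1.78), and Crh per Crhbp count had an interval of 0.75 to 10.2. Npy1r, the second well-expressed receptor of neuropeptide Y, was counted 150 and 190 times, a ratio of 0.77 (0.62 to 0.97).

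Galanin receptors were scarce. Galr1 had 8 and 4 counts, Galr2 5 and 18, with a ratio of 2.20 (0.79 to 7.58), and Galr3 was at 0 in both libraries. Of the neurotensin receptors, Ntsr1 had 1 and 1 counts and Ntsr2 had 38 and 48, at a ratio of 0.77 (0.49 to 1.21), whereas Sort1, a sorting protein that also binds neurotensin, had 399 and 654 counts and a ratio of 1.0 (0.88 to 1.14). The remaining receptors of neuropeptide Y, Npy4r, Npy5r and Npy6r, had 0 and 1, 7 and 11, and 5 and 6 counts. Of the receptors for the Vip product, Vipr1 had 0 and 8 counts, at least 1.63-fold higher against the floor but under the summed count needed, Vipr2 had 10 and 10, and Adcyap1r1, which prefers the related peptide PACAP, had 114 and 192 (ratio 1.03, 0.81 to 1.31). Crhr1 had 10 and 16 counts and Crhr2 had 8 and 13. At such counts the intervals are wide, that of Crhr1 running from 0.42 to 2.41 and that of Crhr2 from 0.38 to 2.76.

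Close relatives of the genes did not share 1 direction. Of 13 measured relatives, 2 were called lower, Mme and Jdp2, and 4 higher, Ece2, Sprr1b, Sprr2d and Sprr2h. The Sprr genes among these had 0 counts in the Water library. Among all measured genes 14.9% were called lower and 17.3% higher. The relatives had a median log2 ratio of 0.31. With the median of the 22 pan-neuronal markers set to 0, 4 were lower and 3 higher, and the median was -0.51. By that scaling 61% of all 14854 measured genes were called lower and 504 higher, with a median of -0.79. On the TMM scale Jdp2 was 1.57-fold lower (1.27 to 1.95). Adcyap1, the PACAP gene and nearest relative of Vip, had 416 and 830 counts and a ratio of 1.22 (1.08 to 1.37). Among the relatives of Crh, Ucn had 9 and 0 counts, at least 4.91-fold lower against the floor but below the summed count needed, Ucn2 had 6 and 3 and Ucn3 was at 0 in both.

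Other neuropeptide genes were more often called higher than lower on the TMM scale. Scaled on neuronal markers, more were called lower than higher, but a smaller share than among all measured genes. Of 19 measured, 8 were called higher, 2 lower and 9 neither, where 17.3% of all measured genes were called higher and 14.9% lower. The neuropeptide list had a median log2 ratio of 0.58, which lay below the 0.82 of the 22 pan-neuronal markers. With the median of those markers set to 0, 5 of the 19 were called lower and 1 higher, and their median was -0.24. By that scaling 61% of all 14854 measured genes were called lower and 504 higher, with a median of -0.79. On the TMM scale Sst was 4.71-fold higher (3.39 to 6.69) and Pcsk1n, a granin-like precursor, 2.59-fold higher (2.38 to 2.83). The 2 lower genes were Grp, the gastrin-releasing peptide gene, at 27 and 8 counts, 5.52-fold lower (2.44 to 14.1), and Nmu, the neuromedin U gene, at 23 and 17 counts, 2.21-fold lower (1.13 to 4.42). Calca, the most counted peptide gene of the list, had 19823 and 29639 counts and a ratio of 0.91 (0.90 to 0.93).

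A further 37 genes known to rise in injured sensory neurons, listed with earlier results of these data known, were lower by their median but less uniformly. Of 34 measured, 13 were called lower, 3 higher and 18 neither, where 14.9% of all measured genes were called lower and 17.3% higher. The median log2 ratio of the list was -0.35. With the pan-neuronal median set to 0, 27 were lower and 1 higher, where 61% of measured genes were lower. The list median was then -1.17, beside -0.79 for all measured genes. On the TMM scale the sum went the other way, 4303 CPM in the Water and 4673 CPM in the AEW library. A sum follows its most abundant genes, here among others Tubb2b (1259 and 1474 CPM), Hspb1 (485 and 630) and Basp1 (390 and 604). Chl1, also abundant, was lower (391 and 220 CPM). The lowest ratio was that of Gpr151, an orphan receptor induced by nerve injury, at 31 and 3 counts (16.9-fold lower, 5.28 to 86.5). Ankrd1 followed at 25 and 12 counts (3.41-fold lower, 1.65 to 7.45), then the cholecystokinin receptor gene Cckbr at 51 and 26 (3.21-fold, 1.96 to 5.37), and then Sema6a, an axon guidance protein, at 399 and 239 counts and 2.73-fold lower with a narrower interval (2.32 to 3.22). Nos1, which makes nitric oxide, was 3.65-fold higher (2.93 to 4.58), and Vgf, a neurotrophin-induced peptide precursor, 2.27-fold higher (2.05 to 2.53). Gap43, the classical growth-associated protein, had 1918 and 3294 counts and a ratio of 1.05 (0.99 to 1.11). Il6 had 2 counts in each library, and Lif and Reg3b had at most 1.

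Genes known to decline in injured sensory neurons were higher by count on the TMM scale. Scaled on neuronal markers, as many were called higher as lower, while most measured genes were called lower. Of 21 measured, 11 were called higher, 0 lower and 10 neither, where 17.3% of all measured genes were called higher and 14.9% lower. The genes of this list had a median log2 ratio of 0.63. With the pan-neuronal median set to 0, 3 were called higher and 3 lower, and the median was -0.19. By that scaling 504 of all 14854 measured genes were called higher and 61% lower, with a median of -0.79. On the TMM scale Mrgprd, a receptor of non-peptidergic nociceptors, was 4.37-fold higher (3.94 to 4.85) at 420 and 3004 counts. Sst headed the list beside it. At the other end were Calca and the potassium channel gene Kcna1, with a ratio of 1.03 (0.99 to 1.07). This list shares Scn10a and the 3 neurofilament genes with the pan-neuronal markers, of which 13 of 22 were called higher, 0 lower and 9 neither (median 0.82). Rbfox3, the gene of the neuronal marker NeuN, was 3.31-fold higher (3.03 to 3.62) and Avil 2.36-fold (2.24 to 2.48), whereas Map2 was at 0.86 (0.80 to 0.92).

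The kinase pathway of the axon damage signal, with transcription factors other than Atf3, stayed near the middle of all genes on the TMM scale. Atf3, a gene of the set and 4.63-fold lower, was not in this list. Of 22 measured, 2 were called lower, 4 higher and 16 neither, where 14.9% of all measured genes were called lower and 17.3% higher. The median log2 ratio of the pathway was 0.07. With the pan-neuronal median set to 0, 14 were lower and 0 higher, where 61% of measured genes were lower. The pathway median was then -0.75, beside -0.79 for all measured genes. Map3k12, which encodes the damage-sensing kinase DLK, had 1380 and 1640 counts and a ratio of 0.73 (0.68 to 0.78), and Atf4, the factor of the integrated stress response, a ratio of 1.03 (0.98 to 1.08). The 2 lower genes were the AP-1 subunits Fosb, 2.53-fold (1.72 to 3.75), and Fosl2, 1.73-fold (1.51 to 1.97). Map3k13, the relative of DLK, was 2.19-fold higher (1.38 to 3.60) and the scaffold gene Mapk8ip3 2.12-fold higher (1.90 to 2.37).

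**Figure D3:**
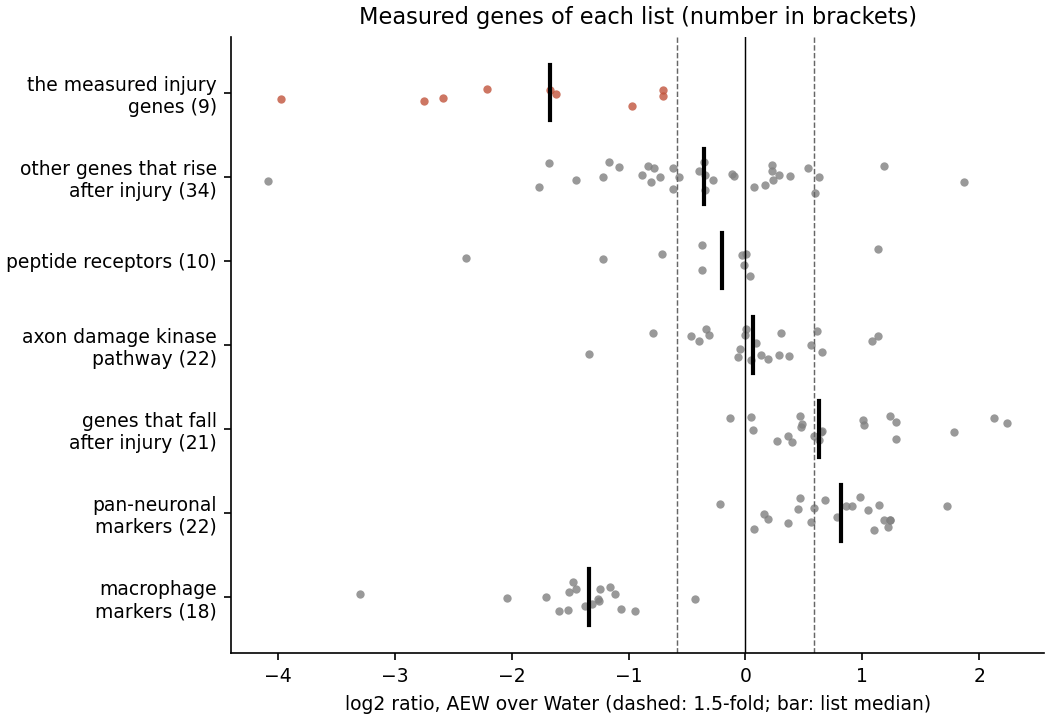
The TMM-scaled log2 ratio of AEW over Water for each measured gene of 7 lists, 1 point per gene with vertical jitter, black bars at the list median and dashed lines at 1.5-fold. The 9 genes of the set all lie left of the lower line and so do 17 of 18 macrophage markers, while the medians of the genes that fall after injury and of the pan-neuronal markers lie right of the upper line.

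Markers of several other cell types were lower together with the injury genes. Macrophage markers were called lower in 17 of 18 and higher in 0, with none at 0 in either library and a median log2 ratio of -1.34. Ms4a7 was 9.82-fold lower (5.15 to 20.6) and Ctss 4.11-fold (3.69 to 4.58). Neutrophil markers were lower in 7 of 8 (summed 1544 and 498 CPM), skeletal muscle markers in 6 of 8 (1788 and 872 CPM) and fibroblast markers in 5 of 8 (14505 and 6965 CPM), with none at 0. Satellite glia markers were lower in 1 of 6, the endothelin receptor Ednrb (summed 7425 and 6667 CPM). Schwann cell markers were lower in 2 of 7, Egr2 and Ncmap (11250 and 8381 CPM). Of all measured genes, 14.9% were called lower and 17.3% higher, so that the 16.7% of satellite glia markers lay near the lower share. The part of these cell types in the ratios of the injury genes was not tested.

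Since these genes are known from injured neurons, they were also set against the neuronal markers of the same library. Per 10000 counts of the 22 pan-neuronal markers, Gal had 342 counts in the Water and 36.0 in the AEW library, Nts 250 and 23.4, Atf3 36.5 and 4.98, and Sox11 78.5 and 30.5. When the libraries were scaled so that the median log2 ratio of these markers was 0, the median of all genes moved by -0.82, and all 9 genes were called lower beside 61% of measured genes. On that scale Crh was 27.8-fold lower (16.3 to 50.9), Nts 11.9-fold (10.9 to 13.1), Gal 10.6-fold (9.84 to 11.4), and Gadd45a and Sox11 2.88-fold and 2.87-fold. The calls over all genes then split into 9066 lower and 504 higher, in place of 2220 lower and 2577 higher. The marker list holds Gap43 and the neurofilament genes, which change after injury themselves.

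**Figure D4:**
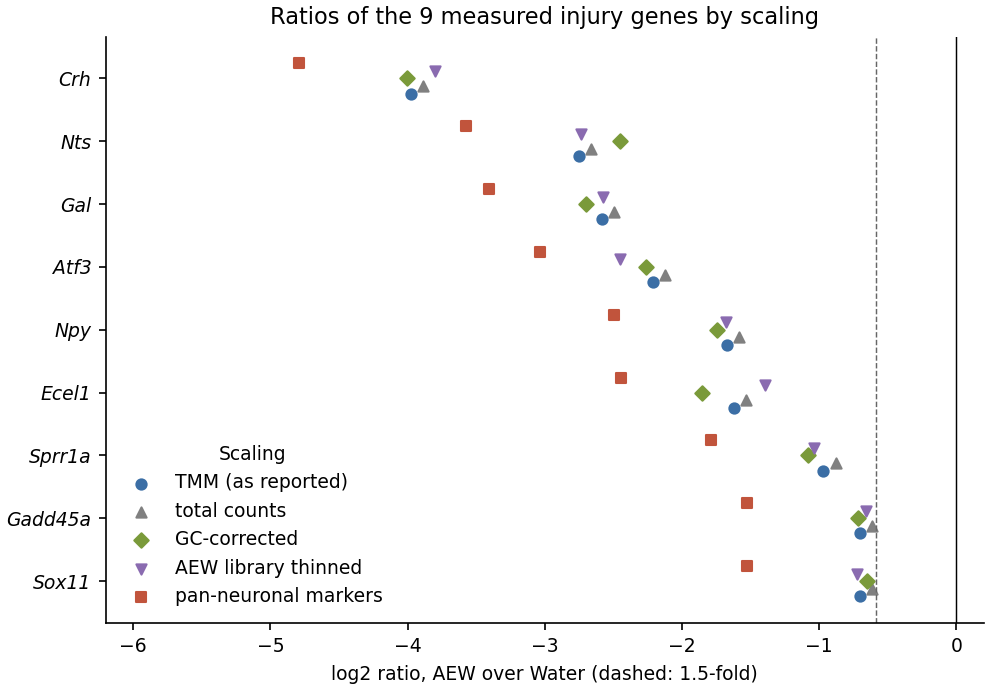
The log2 ratio of AEW over Water of the 9 measured genes under 5 scalings, with 1.5-fold as the dashed line and equality as the solid line. Each symbol lies left of the dashed line, with Sox11 and Gadd45a nearest to it at -0.61 and -0.62 under total counts.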

How the data were processed

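RNA of 1 Water and 1 AEW pool was sequenced. A Trizol extraction and a Lexogen kit called Quant-Seq are given per the labels' protocols. The sources used here do not say whether reads come from 3′ ends only, and the GC correction, which uses whole transcripts, may not match the sequenced part. Per the submitters' processing notes, Bowtie2, bedtools and mm10 were used. The sources used here do not give versions, annotation, strand use or the handling of multiply matching reads. The deposited values are whole-number counts per gene symbol, not normalized by the authors, in 23282 rows. The 35 symbols that occurred more than once (79 rows) stayed in library totals and out of calls.

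TMM factors from edgeR 4.0.16 under R 4.3.3 were 0.970 for the Water and 1.03 for the AEW library. Ratios have exact conditional binomial intervals (Clopper-Pearson), ratios of 2 genes have exact conditional intervals of the odds ratio (scipy 1.17.1), and CPM have exact Poisson intervals. With 1 library per group no test was run and no p-value was computed. Calls were first tested on simulated data. Of 278 listed symbols, 277 matched a row. The values of some listed marker genes are not reported here. Named genes are the 10 genes, the peptide receptors, the measured relatives, up to 4 extreme genes per list by their interval bounds, and the 3 genes nearest in level to Gal, Nts, Crh and Atf3. Other names were chosen after their values were seen, among them Calca, Tac1, Jun, Gap43, Ankrd1, Cckbr, Map3k12, Atf4, Il6, Lif, Reg3b, the Ucn genes and the markers given beside Npy, Crh, Atf3 and Sprr1a. The genes and lists were chosen with earlier results of these data known. Gene positions are from GENCODE M21 on mm10. The 12 other settings used DESeq2 1.42.0 size factors, total counts, upper quartile scaling, pan-neuronal scaling, totals without skin, haemoglobin and ribosomal RNA rows, no count filter, a summed count of at least 100, thinning of the AEW library, 2-fold, an interval that excludes 1.5-fold, the deviation limit, and a lowess correction for transcript GC content (statsmodels 0.14.6), available for 96.2% of measured genes.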

Additional observations from a re-analysis of the deposited data

How the results depend on the processing

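All 9 measured genes kept a lower AEW level under each of the 12 settings, and 9 were called lower except at 2-fold (6), with an interval that excludes 1.5-fold (7) and with the deviation limit (5). No gene of the set was called higher under any of them. The count of other injury genes called lower, 13 as reported, was 27 with pan-neuronal scaling, 8 with a summed count of at least 100, 7 at 2-fold, 7 with an interval that excludes 1.5-fold and 1 with the deviation limit. The count of genes that fall after injury called higher, 11 as reported, was 3 with pan-neuronal scaling and 3 with the deviation limit. The stricter limits lower counts by construction, and pan-neuronal scaling subtracts 0.82 from each log2 ratio, so that 61% of all measured genes were called lower. The GC correction moved Nts most, from a log2 ratio of -2.75 to -2.45. Depth limits Vip and most peptide receptors. No paired analysis was possible because each group has 1 library.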
